A study of Saccharomyces cerevisiae with 8 samples.

Results

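Noncoding transcripts that run across the promoter of a protein-coding gene, and the genes they run across, were examined in a map of RNA 5' ends from budding yeast. The 7 genes were taken by name from the R64 (sacCer3) annotation and from textbook knowledge of which gene each transcript regulates, with no threshold on these values. They were 4 noncoding genes, SRG1, ICR1, PWR1 and IRT1, and 3 coding genes, SER3, FLO11 and IME1, out of 6459 annotated genes counted. They lie in 3 loci. In each, all table positions on both strands were read from 200 nt upstream of the noncoding start to 50 nt inside the coding region. These windows held 464 of 1643818 positions in the table, 159 around SER3, 78 around FLO11 and 227 around IME1.

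A transcript that is read through a neighbouring promoter can keep that promoter closed, because the passing polymerase brings nucleosomes or displaces activators there. In yeast, SRG1 is transcribed when serine is plentiful and represses SER3, whose product starts serine synthesis. IRT1 is switched on by the haploid regulator Rme1 and represses IME1, the master activator of meiosis. ICR1 represses FLO11, a cell-surface flocculin of adhesion and invasive growth, and the opposing transcript PWR1 interferes with ICR1.

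All libraries came from BY4741, a haploid laboratory strain with the genotype Mat a; his3delta1 leu2delta0 ura3delta0 met15delta0, grown to mid-log phase at 30 °C in rich medium with glucose. RNA was dephosphorylated with calf intestinal phosphatase in every group, a step meant to keep uncapped 5' ends from being ligated. The RNA then received 5 units of Decapping Pyrophosphohydrolase, Cap-Clip or TAP (Tobacco Acid Pyrophosphatase), or no enzyme. Each of these enzymes cleaves the cap and leaves a 5' end that ligase accepts, so a start site should be seen with enzyme and not without it. There were 2 libraries in each of the 4 groups, from 2 cultures, each divided among the treatments after dephosphorylation. Strains related to S288C, BY4741 among them, carry a defective FLO8, whose product activates FLO11, which limits the strain as a model of FLO11 expression. In bulk RNA, fewer cells with a transcript and less transcript per cell cannot be told apart.

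A tag is 1 counted 5' end, and CPM are tags per 1000000 tags of the library. The Decapping Pyrophosphohydrolase libraries held 1789278 and 3479399 tags, the Cap-Clip libraries 1268757 and 8475181, the TAP libraries 10739034 and 1747139, and the no-enzyme libraries 736236 and 80721, always as replicates 1 and 2. In the enzyme-treated libraries 88.1% to 90.4% of tags lay in the 5' regions of coding genes (200 nt upstream to 50 nt inside the coding region), against 13.4% in no-enzyme replicate 1 and 71.3% in no-enzyme replicate 2, so the 2 controls stood apart from each other. In no-enzyme replicate 2, 1 tag is worth 12.4 CPM and a count of 0 allows up to 37.2 CPM (3 tags), against 0.279 CPM in TAP replicate 1. The strain label was met: MFA1, a mating pheromone gene of MATa cells, had 2588 to 3549 CPM with enzyme, the highest of 4 MATalpha genes had 3.43 CPM, and the deleted LEU2, URA3 and MET17 had 0 tags. All intervals and floors given here cover counting error only. The p-values rest on the spread between the 2 libraries of a group, pooled over the groups of a fit and moderated across features. In fits with the controls, their spread is thus pooled with that of the enzyme groups.

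The sequences around the starts at the serine locus are shown first, because the results refer to where both starts lie. SRG1 (YNCE0017W) is annotated on the plus strand of chromosome V at 322212 to 322762 and runs past the start codon of SER3 (YER081W, coding region 322686 to 324095), whose distance from the SRG1 start is 474 nt. In the SRG1 line, chrV:322063-322233 on the plus strand, capitals mark the TATA-like run and the leading start. In the SER3 line, chrV:322616-322688 on the plus strand, the single capitals mark the 3 leading starts and the last capitals the start codon.
SRG1 start: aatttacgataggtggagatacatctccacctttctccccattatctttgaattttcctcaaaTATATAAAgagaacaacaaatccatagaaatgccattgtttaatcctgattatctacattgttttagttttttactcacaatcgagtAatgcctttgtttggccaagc
SER3 start: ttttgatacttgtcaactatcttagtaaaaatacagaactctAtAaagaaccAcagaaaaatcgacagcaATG

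SRG1 started mainly at 1 nucleotide. Its leading start was 322213, 1 nt inside the annotated start, with a T before it and an A as its first base. It held 68 and 96 tags with Decapping Pyrophosphohydrolase, 59 and 443 with Cap-Clip, 507 and 55 with TAP, and 3 and 1 without enzyme. Every library, controls included, had tags at this base, and the 6 enzyme-treated libraries had 27.6 to 52.3 CPM there. Of the 1632 enzyme tags in the SRG1 start window (200 nt upstream to 50 nt inside), 1228 lay at this base, which is 75.2% (exact 95% interval 73.1 to 77.3). Over 4453 coding 5' regions with at least 200 enzyme tags, the strongest position held a median of 28.3%, and 0.831% of them reached the SRG1 share. The share at this base was 62.4% and 69.6% with Decapping Pyrophosphohydrolase, 75.6% and 77.6% with Cap-Clip, and 76.5% and 75.3% with TAP. Both Decapping Pyrophosphohydrolase libraries were below the other 4. How many coding 5' regions show the same order was not counted. The next positions, 322209 and 322239, had means of 2.66 and 1.85 CPM over the 6 enzyme-treated libraries.

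The TATA-like run before SRG1 was found by searching 150 nt upstream of the leading start on both strands. TATAAA began at -85, counted from the leading start as 0, and the overlapping TATATA at -87. Before SER3 the same pair of letters began at -75 and -77. TATAAA occurred in 28.4% of the 4453 windows of the same length before coding starts, and TATATA in 20.6%. A match is a description of the letters and not a bound site.

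The SRG1 start window held 109 and 138 tags with Decapping Pyrophosphohydrolase, 78 and 571 with Cap-Clip, 663 and 73 with TAP, and 6 and 1 without enzyme. In CPM these were 60.9 and 39.7 with Decapping Pyrophosphohydrolase, 61.5 and 67.4 with Cap-Clip, 61.7 and 41.8 with TAP, and 8.15 and 12.4 without enzyme. Every enzyme-treated library was above both controls. The mean over the 6 enzyme-treated libraries was 55.5 ± 11.7 CPM (SD, n = 6). The median of 6002 coding 5' regions, windows of the same length unless cut by a neighbour, was 24.3 CPM.

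**Figure D1:**
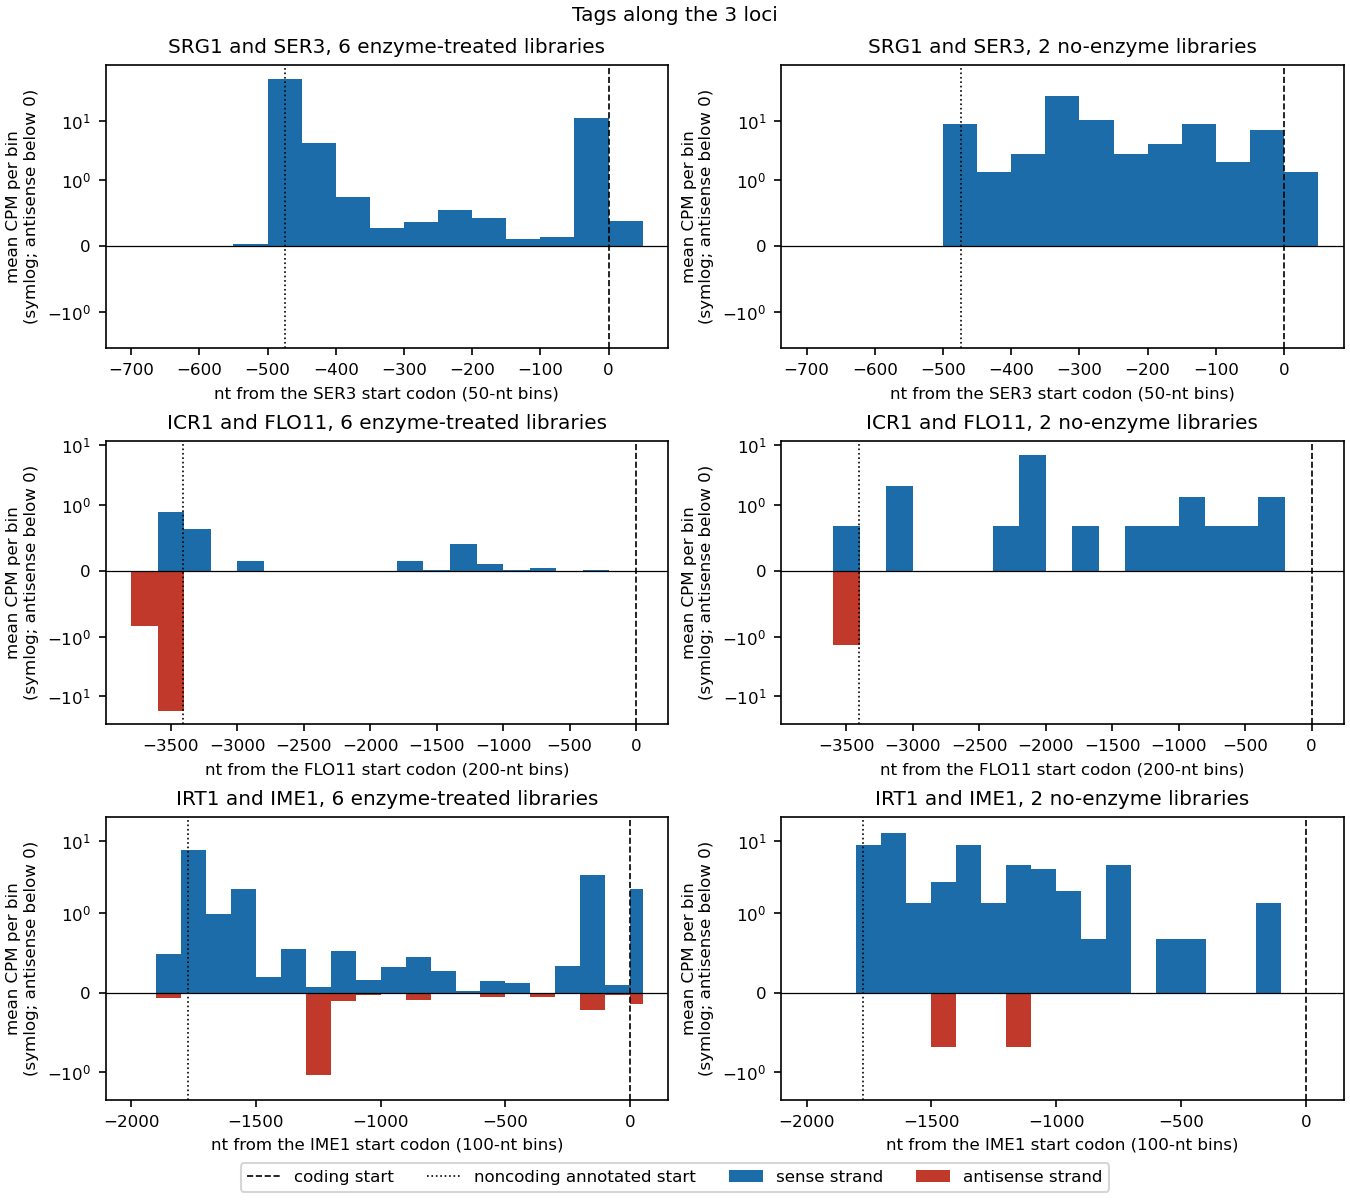
Mean CPM per bin along the 3 loci, sense tags above 0 and antisense tags below, on a symlog axis, by distance from the start codon. With enzyme (left) the SER3 locus had 1517 tags in the bin at the SRG1 start and 330 in the 50 nt before the SER3 start codon; without enzyme (right) tags were spread along SRG1.

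SER3, which encodes 3-phosphoglycerate dehydrogenase, had a start cluster of its own just before its coding region, at a lower level than SRG1. Its 5' region held 20 and 25 tags with Decapping Pyrophosphohydrolase, 18 and 136 with Cap-Clip, 147 and 18 with TAP, and 16 and 2 without enzyme. In CPM it had 11.2 and 7.19 with Decapping Pyrophosphohydrolase, 14.2 and 16 with Cap-Clip, 13.7 and 10.3 with TAP, and 21.7 and 24.8 without enzyme. Both controls were thus above every enzyme-treated library over the whole region, but where the tags lay differed. In the 50 nt before the start codon lay 330 of 364 enzyme tags, 90.7% (exact 95% interval 87.2 to 93.4), and 2 of 18 tags without enzyme, 11.1% (1.38 to 34.7).

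The 3 leading SER3 starts were at -28, -18 and -26 from the A of the start codon, and the first of them, at 322658, held 31% of the enzyme tags. That start had 5 and 6 tags with Decapping Pyrophosphohydrolase, 6 and 45 with Cap-Clip, 45 and 6 with TAP, and 0 and 0 without enzyme. It was seen in every enzyme-treated library and in neither control. The start at -18, 322668, had 3 and 5 tags with Decapping Pyrophosphohydrolase, 5 and 31 with Cap-Clip, 36 and 5 with TAP, and 0 and 1 without enzyme. No start at this locus lay antisense beyond a single tag in TAP replicate 1. All 42-nt sequences of the 3 windows were unique in the genome, so reads of this length would not be shared with copies such as SER33.

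Along the SER3 locus the coding gene took the smaller share of sense tags. The SER3 5' region held 14.7% and 14.8% of them with Decapping Pyrophosphohydrolase, 18% and 18.7% with Cap-Clip, and 17.6% and 19.4% with TAP. The mean was 17.2% ± 1.99 (SD, n = 6). Without enzyme it was 28.6% of 56 tags in replicate 1 (16 tags) and 33.3% of 6 tags in replicate 2, below the 20 tags set for a test. Between both clusters, from 51 to 200 nt before the SER3 start codon, the means were 0.99 CPM with Decapping Pyrophosphohydrolase, 0.59 with Cap-Clip, 0.372 with TAP, and 15 without enzyme. A transcript from the SRG1 leading start carries 7 ATG triplets in the 473 nt before the SER3 start codon.

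**Figure D2:**
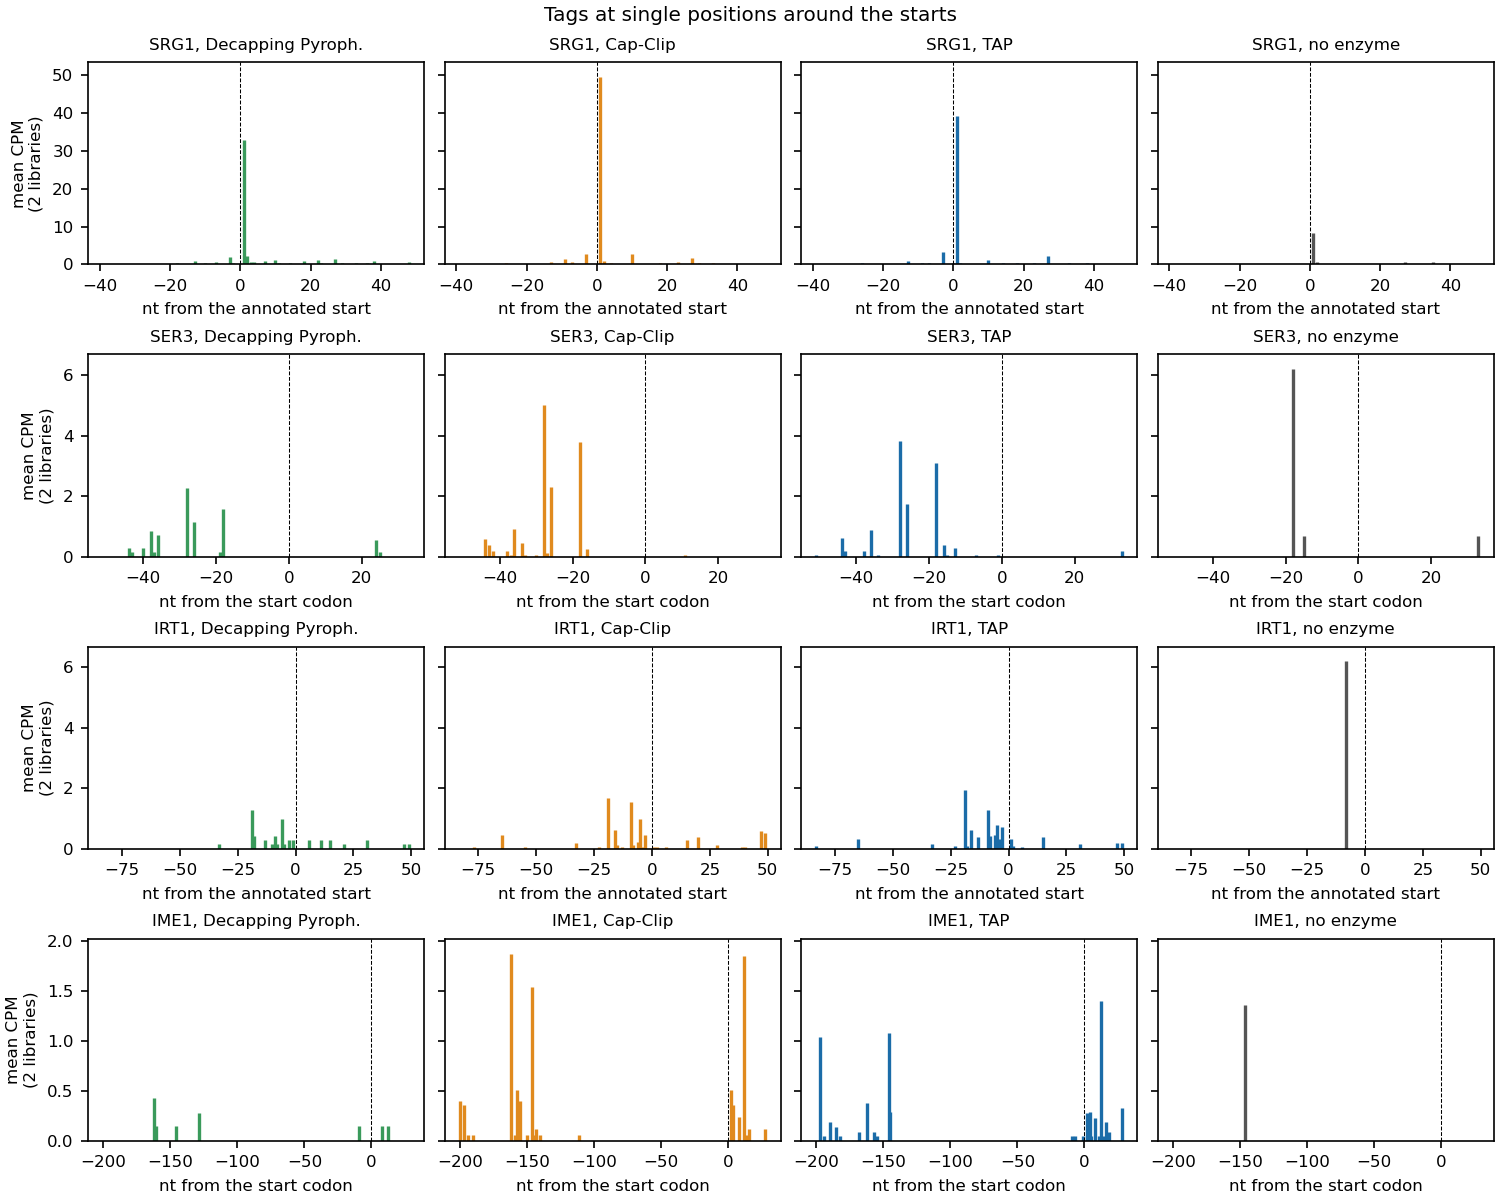
Mean CPM at single positions around the starts of SRG1, SER3, IRT1 and IME1 in each group (2 libraries each), with the dashed line at the annotated start or start codon. With enzyme SRG1 had 1 dominant position, SER3 and IRT1 several, and IME1 1 group of positions upstream of the coding region and another just inside it. Without enzyme the SRG1 start window held only 6 and 1 tags, of which 3 and 1 lay at that position. A single tag in no-enzyme replicate 2 gives a mean of 6.19 CPM.

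The meiotic locus lies on the minus strand of chromosome X. IRT1 (YNCJ0028C) is annotated at 605936 to 607424 and IME1 (YJR094C) has its coding region at 604569 to 605651, 1773 nt from one start to the other. The lines below are given on the minus strand, 5' to 3', since the starts and the letters before them are what the results refer to. In the first, chrX:607414-607473, capitals mark the 3 leading IRT1 starts. The next pair, chrX:607668-607704 and chrX:607587-607623, holds ACCTCAA, a core shared by known Rme1 sites, in capitals. In the last, chrX:605629-605823, single capitals mark the 3 leading IME1 starts and ATG the start codon.
IRT1 starts: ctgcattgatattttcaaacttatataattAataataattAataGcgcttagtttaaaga
IRT1 upstream, farther match: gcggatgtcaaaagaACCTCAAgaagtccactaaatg
IRT1 upstream, nearer match: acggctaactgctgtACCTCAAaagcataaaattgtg
IME1 starts: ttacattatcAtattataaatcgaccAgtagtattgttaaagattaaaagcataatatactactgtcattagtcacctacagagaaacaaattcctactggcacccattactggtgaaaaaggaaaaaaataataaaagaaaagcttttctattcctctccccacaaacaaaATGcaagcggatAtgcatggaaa

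IRT1 was found close to its annotated start, with its tags spread over many positions. Its start window held 13 and 17 tags with Decapping Pyrophosphohydrolase, 12 and 70 with Cap-Clip, 102 and 15 with TAP, and 0 and 1 without enzyme. In CPM these were 7.27 and 4.89 with Decapping Pyrophosphohydrolase, 9.46 and 8.26 with Cap-Clip, 9.5 and 8.59 with TAP, and 0 and 12.4 without enzyme. The enzyme-treated libraries lay above no-enzyme replicate 1, while the single tag of replicate 2 is worth more CPM than any of them. The leading start, 607443, was at -19 from the annotated start and had 3 and 3 tags with Decapping Pyrophosphohydrolase, 2 and 15 with Cap-Clip, 17 and 4 with TAP, and 0 and 0 without enzyme. It held 19.2% of the 229 enzyme tags in the window (exact 95% interval 14.3 to 24.9), a smaller share than the 75.2% at SRG1. The next positions were at -9 and -5.

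ACCTCAA was searched on both strands in 300 nt upstream of the IRT1 leading start and began at -246 and -165. Such a window held it in 3.39% of the 4453 coding regions searched in the same way. TATAAA was not among the 150 nt before the leading start, and TATATA began at -115, -77 and -9. RME1, which encodes Rme1, had 62 tags in the 8 libraries, a mean of 2.08 ± 0.883 CPM with enzyme (SD, n = 6).

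IME1 had few tags, and they fell into a cluster upstream and another inside the coding region. Its 5' region held 2 and 6 tags with Decapping Pyrophosphohydrolase, 13 and 63 with Cap-Clip, 91 and 8 with TAP, and 2 and 0 without enzyme. In CPM it had 1.12 and 1.72 with Decapping Pyrophosphohydrolase, 10.2 and 7.43 with Cap-Clip, 8.47 and 4.58 with TAP, and 2.72 and 0 without enzyme. Both Decapping Pyrophosphohydrolase libraries, with 2 and 6 tags, were below the other 4 enzyme-treated ones and beside the controls. How many coding 5' regions show this order was not counted. With Decapping Pyrophosphohydrolase, 40.9% of 4805 coding 5' regions were called lower than with TAP and 32.9% lower than with Cap-Clip. In the first 50 nt of the coding region lay 0 of 2 and 2 of 6 of these tags with Decapping Pyrophosphohydrolase, 3 of 13 and 35 of 63 with Cap-Clip, 51 of 91 and 2 of 8 with TAP, and 0 of 2 in no-enzyme replicate 1. That is 56% in TAP replicate 1 and 55.6% in Cap-Clip replicate 2, the deepest libraries, and 0% to 33.3% in the other 4 enzyme-treated ones.

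By summed CPM the leading IME1 position was 605639, 12 nt inside the coding region, which had 0 and 1 tags with Decapping Pyrophosphohydrolase, 2 and 18 with Cap-Clip, 24 and 1 with TAP, and 0 and 0 without enzyme. An RNA that begins there lacks the annotated start codon. Its mean over the enzyme-treated libraries was 1.13 CPM, against 0.921 CPM at -146 and 0.891 CPM at -162. The position at -146 had 0 and 1 tags with Decapping Pyrophosphohydrolase, 3 and 6 with Cap-Clip, 11 and 2 with TAP, and 2 and 0 without enzyme. The position at -162 had 1 and 1 tags with Decapping Pyrophosphohydrolase, 4 and 5 with Cap-Clip, 2 and 1 with TAP, and 0 and 0 without enzyme. Only TAP replicate 1 and Cap-Clip replicate 2 had most tags at the position inside the coding region. Over the first 50 nt of the coding region the means were 0.287 CPM with Decapping Pyrophosphohydrolase, 3.25 with Cap-Clip, 2.95 with TAP, and 0 without enzyme. Over the 200 nt before the start codon they were 1.13 CPM with Decapping Pyrophosphohydrolase, 5.59 with Cap-Clip, 3.58 with TAP, and 1.36 without enzyme. The lower level with Decapping Pyrophosphohydrolase was thus seen in both clusters.

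IME1 took 8.7% and 16.2% of the sense tags of its locus with Decapping Pyrophosphohydrolase, 35.1% and 32.5% with Cap-Clip, and 35.5% and 22.2% with TAP, a mean of 25% ± 11.1 (SD, n = 6). Without enzyme it took 3.17% of 63 tags in replicate 1 and 0 of 2 in replicate 2. Only replicate 2 was below the 20 tags set for a test, and the share was not tested. Between IRT1's annotated end and 200 nt before the IME1 start codon, 15 enzyme tags and 0 control tags were counted. A transcript from the IRT1 leading start carries 27 ATG triplets in the 1792 nt before the IME1 start codon. On the plus strand of the locus lay 60 of 643 enzyme tags, 9.33% (exact 95% interval 7.2 to 11.8), of which 30 fell between -1300 and -1201 from the start codon, inside IRT1.

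At the FLO11 locus (minus strand, chromosome IX) no tag was counted in the 5' region of the coding gene. The FLO11 5' region (YIR019C, coding region 389572 to 393675) had 0 tags in all 8 libraries, which over the 6 enzyme-treated libraries together allows up to 0.109 CPM. Its gene body had 2 and 1 tags with Decapping Pyrophosphohydrolase, 0 and 3 with Cap-Clip, 4 and 2 with TAP, and 8 and 0 without enzyme. ICR1 (YNCI0012, 393884 to 397082) had 3 and 2 tags in the start window with Decapping Pyrophosphohydrolase, 1 and 15 with Cap-Clip, 22 and 3 with TAP, and 1 and 0 without enzyme. Each enzyme-treated library had at least 1 tag, and their mean was 1.43 ± 0.597 CPM (SD, n = 6). No-enzyme replicate 1 had 1.36 CPM, inside the range with enzyme, and replicate 2 allows up to 37.2 CPM, so a difference in the ICR1 start window was not detectable at this depth. The leading position by summed CPM, 397083, was at -1 from the annotated start and had 12 tags with enzyme. The next was 394998, 2084 nt inside, with 1 tag in TAP replicate 2, in Cap-Clip replicate 1 and in no-enzyme replicate 1, and the third was 397069, 13 nt inside, with 10 enzyme tags. In start windows of equal length, the enzyme-treated libraries ranged from 0.575 to 2.05 CPM for ICR1 and from 4.89 to 9.5 CPM for IRT1, and did not overlap. The ICR1 line, chrIX:397054-397098 on the minus strand, shows the pair of leading positions that lie near the annotated start, and capitals mark 397083 and 397069.
ICR1 starts: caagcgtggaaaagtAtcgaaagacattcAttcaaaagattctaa

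PWR1 (YNCI0013W, plus strand, 395999 to 396939) had 1 tag, in TAP replicate 1, over its span with 200 nt upstream. Its start window had 0 tags in all 8 libraries, again allowing up to 0.109 CPM over the enzyme-treated ones. The plus strand of the locus was nevertheless rich in tags, with 28 and 99 with Decapping Pyrophosphohydrolase, 17 and 175 with Cap-Clip, 192 and 23 with TAP, and 2 and 0 without enzyme. Of the 534 enzyme tags, 533 lay in the 5' region of MRS1, a divergent neighbour whose product acts in mitochondrial splicing, with its coding start at 397294. A count of plus-strand tags here that did not separate MRS1 would therefore read MRS1 and not PWR1.

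**Figure D3:**
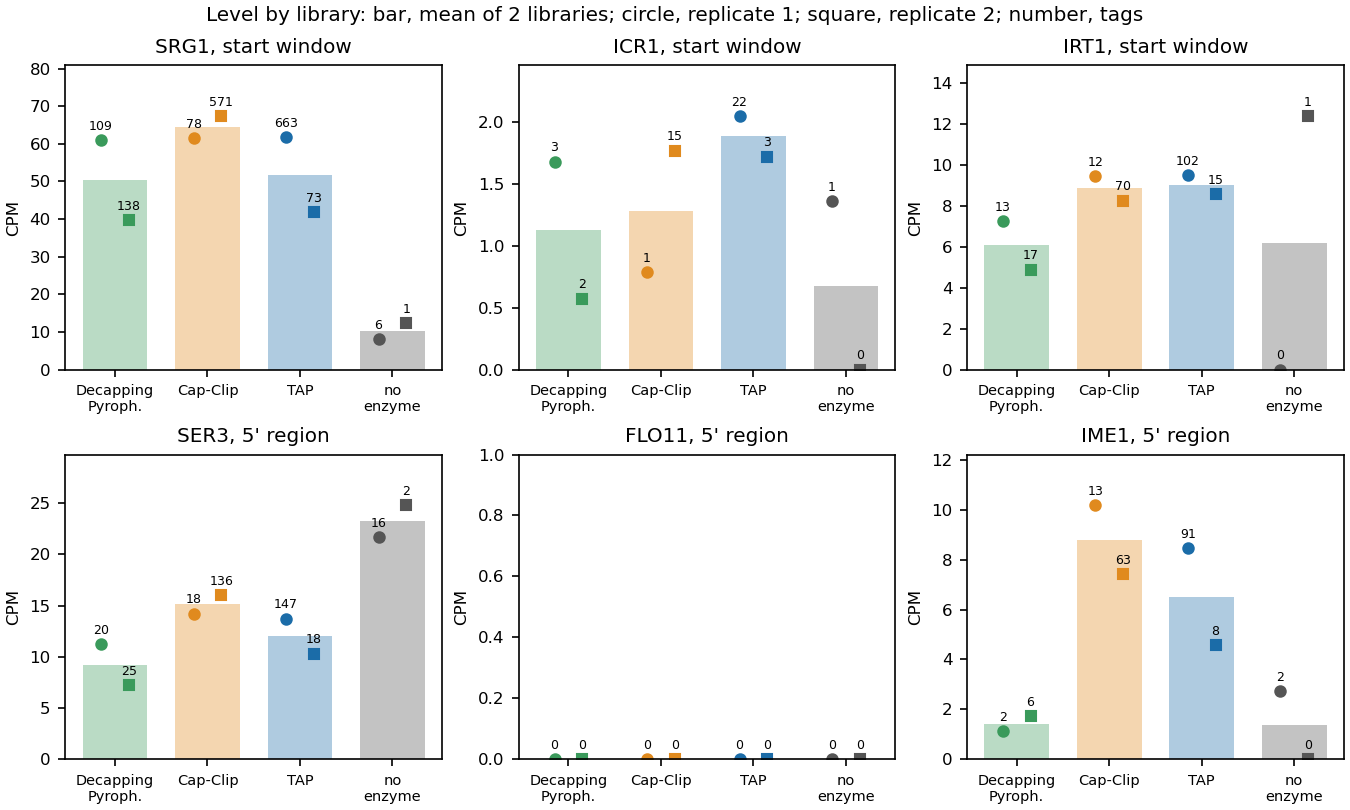
CPM in the start window of the noncoding genes (top) and the 5' region of the coding genes (bottom) in each library, with the tag count beside each point; bars are means of 2 libraries and the axes start at 0. FLO11 was 0 in all 8 libraries. Both Decapping Pyrophosphohydrolase points of IME1 lie below the other enzyme points, at 1.12 and 1.72 CPM, an order not counted over other coding 5' regions.

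Each enzyme was then compared with no enzyme, which asks whether tags depend on decapping. These fits used edgeR's quasi-likelihood test over all 8 libraries scaled to library totals, with noncoding genes counted over their span, Benjamini-Hochberg adjustment over 9171 features and a threshold of 0.05. The filter on low counts kept 5 of the 7 members and dropped PWR1 and FLO11. With Decapping Pyrophosphohydrolase 3 of the 5 were called, all lower, where 64.6% of all features were called and 17.7% were called higher. With Cap-Clip 2 were called, both lower, where 81.9% were called and 34.9% were called higher. With TAP 2 were called, both lower, where 84.8% were called and 37.9% were called higher. Kinds of feature differed. The class of noncoding genes held every annotated gene outside the nuclear coding genes, so mitochondrial genes, coding ones included, are in it. Of the 132 tested, 57.6% were called lower and 13.6% higher with Decapping Pyrophosphohydrolase, 64.4% and 8.33% with Cap-Clip, and 62.9% and 6.82% with TAP. Of 4722 coding 5' regions, 1.55% were called lower and 33.8% higher with Decapping Pyrophosphohydrolase, 1.38% and 67.1% with Cap-Clip, and 1.44% and 72.8% with TAP. These 3 comparisons share their control libraries.

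ICR1 and IRT1 were the members called with each enzyme. ICR1 had log2 fold changes of -3.37 ± 0.73 with Decapping Pyrophosphohydrolase (SE, adjusted p = 0.000185 by edgeR), -2.30 ± 0.62 with Cap-Clip (0.00174) and -2.31 ± 0.61 with TAP (0.00137). IRT1 had -2.77 ± 0.51 (adjusted p = 2.25e-05 by edgeR), -2.08 ± 0.49 (0.000438) and -2.20 ± 0.48 (0.000195) in the same order. SER3 was called lower with Decapping Pyrophosphohydrolase, by a log2 fold change of -1.32 ± 0.57 (adjusted p = 0.0453 by edgeR), and had -0.52 ± 0.54 with Cap-Clip (0.357) and -0.83 ± 0.54 with TAP (0.151). The SER3 call with Decapping Pyrophosphohydrolase was lost with the replicate block (-1.23 ± 0.67, edgeR adjusted p = 0.0977) and without the filter on low counts (-1.32 ± 0.62, edgeR adjusted p = 0.0552). SRG1 had -0.015 ± 0.50 with Decapping Pyrophosphohydrolase, 0.34 ± 0.50 with Cap-Clip and 0.027 ± 0.50 with TAP (edgeR adjusted p = 0.979, 0.523 and 0.96). IME1 had -0.68 ± 1.24, 1.73 ± 0.94 and 1.58 ± 0.94 in the same order (edgeR adjusted p = 0.622, 0.0869 and 0.115). Some of these directions and most calls changed with the scaling. Under TMM the median log2 fold change over the tested features was 2.14 with Decapping Pyrophosphohydrolase, 2.02 with Cap-Clip and 1.99 with TAP, a shift of 2.45, 1.77 and 1.61. On that scale SRG1 was called higher at 2.55, 2.65 and 2.33 and SER3 at 1.28, 1.80 and 1.49. IME1 was called higher there with Cap-Clip (3.95, edgeR adjusted p = 3.84e-05) and TAP (3.84, 4.07e-05) and not with Decapping Pyrophosphohydrolase (1.89, 0.0857), and DESeq2 called it with Cap-Clip (3.87, adjusted p = 0.00203) and TAP (3.56, 0.00407). ICR1 and IRT1 were not called under TMM, ICR1 with -0.77, -0.038 and -0.059 and IRT1 with -0.29, 0.046 and -0.066. The share of called features that were higher was 27.4%, 42.7% and 44.6% with library totals, and 58.9%, 53.8% and 53.2% with TMM. Without no-enzyme replicate 1, the deeper control, none of these members was called.

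The whole span of a noncoding gene mixes its start with its interior, and the controls had their tags in the interior. The SRG1 interior, from 50 nt inside to the edge of the SER3 region, had 3.91 and 1.72 CPM with Decapping Pyrophosphohydrolase, 3.15 and 2.24 with Cap-Clip, 2.42 and 1.14 with TAP, and 46.2 and 37.2 without enzyme. The start window held 95% of the SRG1 tags with Decapping Pyrophosphohydrolase, 96.6% with Cap-Clip and 96.3% with TAP, against 15.9% of 44 tags without enzyme (exact 95% interval 6.64 to 30.1). For IRT1 the tags counted here run past its annotated end to the edge of the IME1 5' region, while the fits stop at that end. Of these tags the start window held 57.7%, 52.9% and 60.6% in the same order, against 1.59% of 63 tags without enzyme (0.0402 to 8.53). The controls differed, with 0 of 61 tags in replicate 1 and 1 of 2 in replicate 2. Gene bodies as a whole showed the same shift, with 4.93% to 6.75% of tags with enzyme and 79.2% and 24% without.

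**Figure D4:**
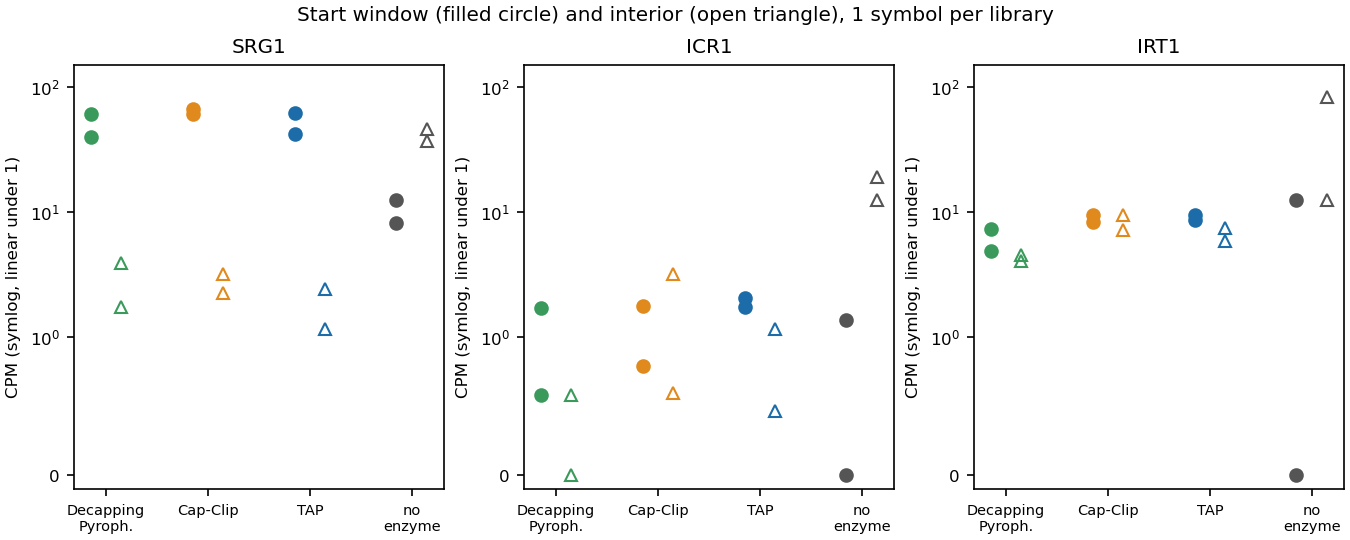
CPM in the start window (filled circles) and in the interior (open triangles) of SRG1, ICR1 and IRT1, 1 symbol per library, on a symlog axis. Interiors are drawn to the edge of the coding 5' region. For SRG1 the circles lie above the triangles in every enzyme-treated library and below them in both controls.

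Counted apart from its interior, the SRG1 start window was higher with each enzyme. This split was chosen after the values had been seen. Its log2 fold changes were 2.52 ± 0.69 with Decapping Pyrophosphohydrolase, 2.89 ± 0.68 with Cap-Clip and 2.59 ± 0.68 with TAP (edgeR adjusted p = 0.00222, 0.000439 and 0.00129), where 17.7%, 35% and 37.9% of all features were called higher. Coding 5' regions are the windows most like it. Of these, 33.8%, 67.1% and 72.8% were called higher in the fits above, with medians of 1.46, 2.09 and 2.21. A higher start window is thus common and not particular to SRG1. The SRG1 interior was lower, by log2 fold changes of -4.13 ± 0.53, -4.19 ± 0.51 and -4.34 ± 0.50 (edgeR adjusted p = 2.07e-07, 1.09e-07 and 4.41e-08), where 46.9%, 46.9% and 47% of all features were called lower. Of coding 5' regions only 1.55%, 1.38% and 1.44% were called lower in the fits above. The lower calls thus lay mostly in gene bodies, whose own share was not counted, and a lower interior is not read as particular to SRG1 or IRT1. The IRT1 start window had 2.18 ± 1.29, 2.74 ± 1.19 and 2.84 ± 1.17 (edgeR adjusted p = 0.134, 0.0365 and 0.0272), and its interior -4.00 ± 0.54, -3.21 ± 0.50 and -3.58 ± 0.50 (edgeR adjusted p = 3.15e-07, 1.84e-06 and 3.1e-07). Other scaling, which raised the median of all features, gave calls of the IRT1 start window with each enzyme. Its values were 4.71, 4.94 and 5.04 under TMM and 3.75, 4.20 and 4.30 with DESeq2. The SRG1 interior had -1.54, -1.94 and -2.09 under TMM, all called, and -1.88, -2.05 and -2.37 with DESeq2, where the call with Decapping Pyrophosphohydrolase was lost (DESeq2 adjusted p = 0.0586). The IRT1 interior had -1.50, -1.09 and -1.47 under TMM, all called, and -1.48, -0.71 and -1.05 with DESeq2, none called (DESeq2 adjusted p = 0.08, 0.36 and 0.173). Without no-enzyme replicate 1 the IRT1 interior was not called with any enzyme (-1.56, -0.80 and -1.17, edgeR adjusted p = 0.586, 0.71 and 0.592). The IRT1 window was not called with Cap-Clip without Cap-Clip replicate 1 or replicate 2 (edgeR adjusted p = 0.0682 and 0.0712), nor with TAP without TAP replicate 1 (edgeR adjusted p = 0.0798). Without no-enzyme replicate 1 the SRG1 window was not called (2.11 ± 1.14 with TAP, edgeR adjusted p = 0.158) and the IRT1 window turned to -0.42 ± 1.57, since 1 tag then stands for the control.

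The enzymes were compared with each other over the 6 enzyme-treated libraries with TMM scaling and the same test over 8795 features. The filter kept SRG1, SER3, IRT1 and IME1. Between Cap-Clip and TAP 0 of these 4 were called, where 0.0341% of all features were called, with 0 at an unadjusted p under 0.05 and 0 by DESeq2. Between Decapping Pyrophosphohydrolase and TAP 1 was called, where 47% of features were, and between Decapping Pyrophosphohydrolase and Cap-Clip 1, where 35.4% were. The called member was IME1 in both, lower, where 40.9% of 4805 coding 5' regions were called lower against TAP and 32.9% against Cap-Clip. With library totals instead of TMM, the share of called features that were higher was 23.8% in place of 51.3% against TAP and 19% in place of 48% against Cap-Clip. These comparisons share libraries pairwise.

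IME1 fell with Decapping Pyrophosphohydrolase, by a log2 fold change of -1.89 ± 0.49 against TAP (edgeR adjusted p = 0.00275) and -2.00 ± 0.50 against Cap-Clip (edgeR adjusted p = 0.00306). In both comparisons the 2 Decapping Pyrophosphohydrolase libraries were below both libraries of the other enzyme. The share of coding 5' regions with this order was not counted. Against TAP the call was lost without TAP replicate 1 (-1.28 ± 0.83, edgeR adjusted p = 0.253) and with DESeq2 (-1.85 ± 0.76, adjusted p = 0.0519). SRG1 had 0.27 ± 0.19 against TAP and -0.052 ± 0.19 against Cap-Clip, SER3 -0.15 ± 0.28 and -0.48 ± 0.28, and IRT1 -0.16 ± 0.27 and -0.28 ± 0.28, and none of these passed the threshold. Cap-Clip against TAP gave 0.33 ± 0.18 for SRG1, 0.33 ± 0.23 for SER3, 0.13 ± 0.23 for IRT1 and 0.11 ± 0.29 for IME1. Without Decapping Pyrophosphohydrolase replicate 2, SRG1 was called higher than with TAP (0.59 ± 0.19, edgeR adjusted p = 0.00851).

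**Figure D5:**
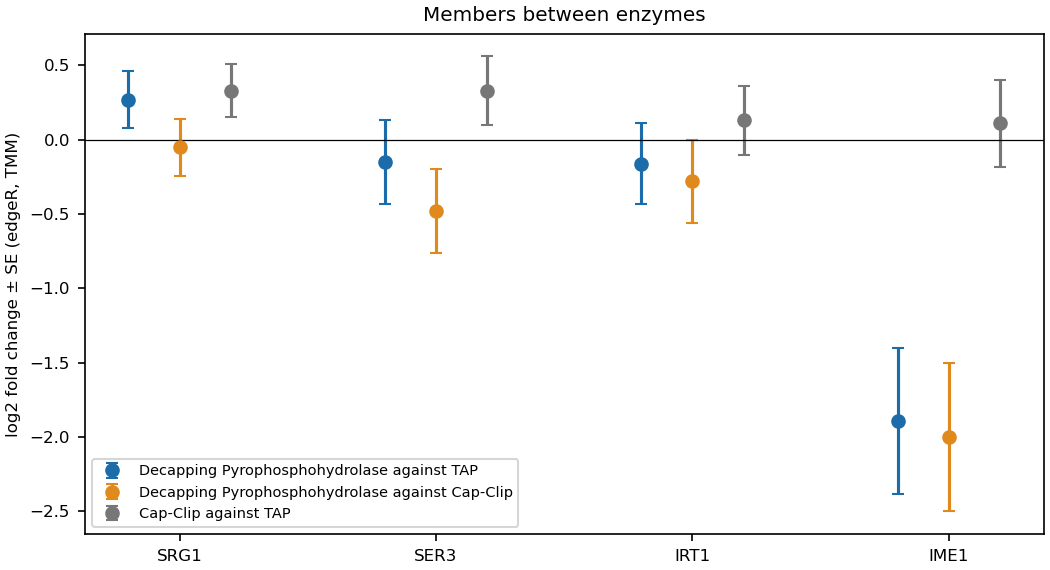
Log2 fold changes of SRG1, SER3, IRT1 and IME1 between enzymes, with the SE of the edgeR fit. IME1 lies at -1.89 and -2.00 with Decapping Pyrophosphohydrolase against TAP and Cap-Clip, and the other members lie between -0.48 and 0.33.

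The pathways of the coding members were read from lists of known function, by 5' regions. The shares and medians of all coding 5' regions are the background for them, with medians of 1.46 with Decapping Pyrophosphohydrolase, 2.09 with Cap-Clip and 2.21 with TAP against no enzyme. In serine and one-carbon metabolism, 12 of 13 genes were tested, SER3 among them. With Decapping Pyrophosphohydrolase against no enzyme 4 were higher, where 33.8% of 5' regions were, and 1 lower, with a median log2 fold change of 1.07. The 1 lower was SER3, whose call was lost with the replicate block and without the filter. With Cap-Clip 4 were higher, where 67.1% were, and 0 lower (median 1.36), and with TAP 6, where 72.8% were, and 0 lower (1.68). The 3 medians were below those of all coding 5' regions. The most abundant were GLY1, threonine aldolase, at 732 ± 145 CPM over the enzyme-treated libraries (SD, n = 6), GCV3, a subunit of glycine decarboxylase, at 613 ± 86.1 CPM, and SHM1 and SHM2, serine hydroxymethyltransferases, at 290 ± 32.7 and 273 ± 34.8 CPM. In 5' regions of equal length, SER3 had 12.1 ± 3.18 CPM and its paralog SER33 45.1 ± 12.5 CPM (SD, n = 6 each).

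Factors known from yeast to act on SRG1 or SER3 transcription were all tested, 9 of 9. They include the histone chaperones SPT6, at 513 ± 164 CPM, and POB3, at 148 ± 74.4 CPM, and the elongation factors SPT5, at 147 ± 85.3 CPM, and SPN1, at 120 ± 47.2 CPM (SD, n = 6 each). Against no enzyme 2 were higher with Decapping Pyrophosphohydrolase (33.8% of coding 5' regions), 6 with Cap-Clip (67.1%) and 7 with TAP (72.8%), and 0 lower with any, with medians of 0.91, 2.21 and 2.25. Against TAP and against Cap-Clip, Decapping Pyrophosphohydrolase gave 6 lower and 0 higher each, where 40.9% and 32.9% of coding 5' regions were lower, with medians of -0.88 and -0.61 against -0.38 and -0.31 over those regions.

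Of the 5 flocculin genes, FLO11 included, no 5' region passed the filter. Those of FLO1, FLO9, FLO10 and FLO11 had 0 tags in the 8 libraries and that of FLO5 had 4. Of 15 listed FLO11 regulators 14 matched the annotation, all but FLO8, and 9 tested, and against no enzyme 3 were higher with Decapping Pyrophosphohydrolase, 6 with Cap-Clip and 6 with TAP, with 0 lower and medians of 1.38, 1.89 and 1.66, beside the same shares of 33.8%, 67.1% and 72.8%. RPD3, a histone deacetylase, had 77.7 ± 36 CPM, RIM101, a pH-responsive repressor, 40.5 ± 12.9 CPM, CYC8, a corepressor, 32.1 ± 10.9 CPM, and TUP1, its partner, 28.7 ± 3.94 CPM (SD, n = 6 each). Of 13 regulators of IME1 and early meiosis genes 7 were tested, of which 0, 1 and 4 were higher in the same order and 0 lower, with medians of 0.61, 1.47 and 1.47, beside the same shares. IME2, a kinase induced by IME1, had 2 tags in the 8 libraries and NDT80, a middle-meiosis activator, had 1.

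Of 9 other long noncoding RNAs 4 were tested, and against no enzyme 0 were higher and 2 lower with Decapping Pyrophosphohydrolase, and 1 higher and 2 lower with Cap-Clip and with TAP. Over the tested noncoding class, mitochondrial genes included, 57.6%, 64.4% and 62.9% were lower, as given above. The medians of the 4 were -1.03, -1.07 and -1.15, against -1.79, -2.28 and -2.25 over that class. TLC1, the telomerase RNA, had 74 ± 10.6 CPM in the enzyme-treated libraries, RUF20 16.1 ± 5.16 CPM and RME2, the antisense transcript of IME4, 12 ± 0.799 CPM (SD, n = 6 each). Their means without enzyme were 99.1, 8.23 and 45 CPM, so TLC1 and RME2 were higher there and RUF20 lower.

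The features most like the members over the 8 libraries were found by Pearson correlation of log2(CPM + 1) among 5471 features with at least 10 CPM. For SRG1 they were the 5' region of ESA1 (r = 0.872) and the gene bodies of NCE101 (0.852) and YMR114C (0.773). For SER3 they were the gene bodies of RIC1 (r = 0.922), CMK1 (0.918) and CWC21 (0.909), and for IRT1 those of HIS5 (r = 0.991), GFD2 (0.991) and MYO4 (0.988). The 8 points share depth and the unlike controls, and the values describe these libraries only.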

How the data were processed

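Per genome position and strand, the authors deposited counts of read 5' ends, not normalized, for 8 libraries. Novoalign and the build R64 (sacCer3) are named in the submitters' processing notes. The Novoalign version, and whether tags that share an 8-nt ligation barcode were collapsed, are not given in the sources used here. Positions were read as 1-based, where 83.3% of tags show a pyrimidine before a purine start, against 4.23% and 3.7% one base away. Genes came from the RefSeq R64 annotation and sequences from its genome, which the chromosome names matched.

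The 7 members, the gene lists and the tests were chosen with earlier results of these data known. A start window, or the 5' region of a coding gene, runs from 200 nt upstream to 50 nt inside. Noncoding genes were counted from 200 nt upstream over their span, cut where a coding 5' region of the same strand begins. Mitochondrial genes, coding ones included, were counted in the same way and placed in the noncoding class. ICR1 was therefore counted at 394758 to 397282 only, since YIR020C lies in it on the same strand. Tests were 2-sided, made with edgeR 4.0.16 (filterByExpr, glmQLFTest) under R 4.3.3, over all features. Library totals scaled the fits against no enzyme over 8 libraries, since TMM assumes that most features do not change, and TMM the fits over the 6 enzyme-treated libraries. DESeq2 1.42.0 was an alternative, as were the other scaling, no filter, other windows, positions with at least 2 tags, a replicate block, all 8 libraries in 1 fit, and leaving out each library. Intervals of shares are exact binomial at 95%. A count of 0 is taken to allow 3 tags.

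Named are all members, their 3 leading positions by summed CPM, up to 4 members of each list by mean CPM, and the 3 features most correlated with each member above 10 CPM. MRS1, SER33, RME1, IME2, NDT80 and FLO5 were named after their values were seen. Libraries with the same number are aliquots of 1 culture by the series' design. The differences between replicates 1 and 2 correlated between groups, over features, by 0.0298, 0.0614, 0.0328, 0.0923 and 0.093, and by -0.105 for Cap-Clip and no enzyme. Replicates were not alike within counting error: their chi-square over degrees of freedom was 8.98 for Decapping Pyrophosphohydrolase, 6.77 for Cap-Clip, 7.89 for TAP and 36.9 for no enzyme.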

Additional observations from a re-analysis of the deposited data

How the results depend on the processing

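Of 426 alternative values of 39 fold changes, 324 kept direction and side of the threshold, 45 changed sign, 36 lost a call and 21 gained one. The cause was not tested for any of them. Against no enzyme, DESeq2 gave 2.14 for SRG1, 0.97 for SER3 and 1.42 for IME1 with Decapping Pyrophosphohydrolase, 1.62 for SER3, 0.051 for ICR1 and 0.22 for IRT1 with Cap-Clip, and 1.35 for SER3 and 0.13 for IRT1 with TAP. TMM scaling gave 2.55, 1.28 and 1.89 for SRG1, SER3 and IME1 with Decapping Pyrophosphohydrolase, 1.80 and 0.046 for SER3 and IRT1 with Cap-Clip, and 1.49 for SER3 with TAP. Noncoding genes counted to 50 nt inside only gave 2.52 for SRG1 and 2.18 for IRT1 with Decapping Pyrophosphohydrolase, 2.74 for IRT1 with Cap-Clip and 2.84 with TAP, and -0.089 for IRT1 with Cap-Clip against TAP. Spans that were not trimmed gave -0.21 for SRG1 with TAP.

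With 400 nt upstream of coding regions, SRG1 had 2.53 with Decapping Pyrophosphohydrolase against no enzyme and SER3 0.0075 against TAP. The SRG1 span is cut where the SER3 5' region begins, so in this setting it lacked most of its interior. The 2.53 therefore lay beside the 2.52 of the SRG1 start window in the same comparison, and is not a separate check of the whole span. In this setting 4 members were called with Cap-Clip and with TAP, and the SER3 region took 19.9% and the FLO11 region 0.617% of sense tags. Positions with at least 2 tags gave 0.13 for SRG1 with Decapping Pyrophosphohydrolase, 0.38 and 0.10 for SER3 with Cap-Clip and TAP, all against no enzyme, 0.058 for SER3 with Decapping Pyrophosphohydrolase against TAP, 0.17 for SRG1 against Cap-Clip and -0.30 for IRT1 with Cap-Clip against TAP, and left 1 member called with Cap-Clip and with TAP. With DESeq2 1 member was called with Decapping Pyrophosphohydrolase against no enzyme and 0 against TAP. Library totals without TMM gave -0.10 for SRG1 with Decapping Pyrophosphohydrolase against TAP and 2 called members against Cap-Clip. The replicate block gave 0.054 for SRG1 with Decapping Pyrophosphohydrolase against no enzyme, left 2 members called with each enzyme, and changed no call other than that of SER3.

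Leaving out 1 library at a time, 0 to 3 members were called with Decapping Pyrophosphohydrolase, and 0 to 2 with Cap-Clip and with TAP, against no enzyme, 0 to 2 with Decapping Pyrophosphohydrolase against TAP and 1 to 2 against Cap-Clip. The 0 came from the fits without no-enzyme replicate 1, and, against TAP, from the fit without TAP replicate 1. In these fits SRG1 ranged from -0.36 to 0.29 with Decapping Pyrophosphohydrolase and from -0.30 to 0.28 with TAP, and IME1 from -1.10 to 5.61 with Decapping Pyrophosphohydrolase, against no enzyme. The IRT1 start window ranged from -1.10 to 7.54 with Decapping Pyrophosphohydrolase, -0.54 to 8.11 with Cap-Clip and -0.42 to 8.23 with TAP. Against TAP, Decapping Pyrophosphohydrolase gave -0.11 to 0.59 for SRG1, -0.48 to 0.21 for SER3 and -0.36 to 0.092 for IRT1, and Cap-Clip -0.032 to 0.56 for IRT1 and -0.051 to 0.75 for IME1. Decapping Pyrophosphohydrolase against Cap-Clip gave -0.40 to 0.29 for SRG1. Where 1 library stood for a group, it was assumed to vary like the others. The depth of no-enzyme replicate 2, 80721 tags, limits each value against no enzyme, and ICR1, PWR1 and FLO11 are limited by their few tags in all libraries.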
